A study of Homo sapiens with 12 samples.

Results

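The comparison described here asks how mRNA stability in a breast cancer line that over-expresses a tRNA-Arg differed from that in a mock line. Its members are 8 of the 12 arrays of the series, chosen by their labels: tRNA-Arg cells at 9 h, tRNA-Arg cells at 0 h, mock cells at 9 h and mock cells at 0 h, with 2 arrays in each. All were MDA-MB-231 cells, an established human breast cancer line of the mesenchymal, triple-negative type, grown in a DMEM-based medium and treated with α-amanitin at 10 µg/mL, the 0 h samples for no time. The tested line over-expressed the gene chr16.trna1, a tRNA-Arg with the anticodon CCG, and its control was labelled mock. The labels do not give the vector, the number of clones behind each line, or whether replicates were separate cultures, so every p-value measures only the spread between these arrays. The other 4 arrays were of a line over-expressing a tRNA-Glu. Beyond the shared normalization and filter, they entered the estimate of the spread, 1 split of the probes and 1 comparison of directions. The order of probes in that split did not use the changes on the tRNA-Arg or mock arrays.

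A tRNA reads a codon of the mRNA with its anticodon and delivers the matching amino acid to the ribosome. The anticodon CCG pairs with the arginine codon CGG, and the supply of a tRNA can alter both how often its codons are translated and how long the mRNAs that hold them last. α-Amanitin binds RNA polymerase II and stops the synthesis of new mRNA, while RNA polymerases I and III are less sensitive to it, so the amount of an mRNA at 9 h relative to 0 h falls the faster it is degraded. The stability difference used below is the change of a probe's log2 signal between 0 h and 9 h in tRNA-Arg cells minus the same change in mock cells, and a value above 0 means that the RNA kept more of its relative level in tRNA-Arg cells.

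The mean raw intensity per array was 497 to 520 at 9 h and 533 to 595 at 0 h over the 8 arrays, with 75th percentiles of 134 to 154 and 172 to 195. The signals were then brought to a common distribution, so each value is a share of the RNA on an array: fewer cells and less RNA per cell cannot be told apart, nor can a loss of all mRNAs in step be seen. The times were separated by the first principal component (63.2% of the variance). The 9 h arrays scored 32.4 and 36.7 on it in tRNA-Arg cells and 29.1 and 28.9 in mock cells. On the third component (7.45% of the variance) the 4 tRNA-Arg arrays lay between -7.57 and -6.53 and the 4 mock arrays between 12.7 and 20.5. These lines thus stood apart at both times. The tRNA-Glu arrays lay on the tRNA-Arg side, at -19.5 and -4.62 at 0 h and -6.34 and -5.28 at 9 h. The component thus set mock apart from both over-expressing lines. The array tRNA-Glu 0h replicate 1 stood apart from all others on the second component (8.82%), at -30.1. The 47231 probes have no gene names here, so array results are given by probe identifier. For the same reason the defining markers of the cell line and the over-expressed tRNA itself could not be checked.

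No single probe differed in stability between the lines once all tests were counted, and most probes called as changed by α-amanitin in one line were called in the same direction in the other. Of 25456 probes tested, 7107 (27.9%) changed between 0 h and 9 h in tRNA-Arg cells, 3517 of them upward, and 6866 (27.0%) changed in mock cells, 3469 of them upward (limma, Benjamini-Hochberg adjusted p under 0.05). Scaling arrays by their medians in place of quantile normalization turned these splits to 8.70% upward in tRNA-Arg cells and 22.9% upward in mock cells, against 49.5% and 50.5%, so the direction of the bulk of these calls depends on the scaling. The same limma fit called 2811 probes down in both lines, 2152 up in both, and 10 in opposite directions, 5 each way; another 2134 were called in tRNA-Arg cells and not in mock cells, and 1893 the other way round, which is not a test of a difference.

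The test of the difference itself, the limma interaction of line and time, called 0 of the 25456 probes (0%), and the lowest adjusted p was 0.685. At an unadjusted p under 0.05 there were 727 probes (2.86%) higher and 817 (3.21%) lower in tRNA-Arg cells, 6.07% of the probes tested, where 1273 probes in all would pass by the definition of p. With median scaling the median stability difference of all probes moved to -0.11 and that split became 384 higher and 1443 lower, so directions below are relative to the middle of all probes. The central 95% of stability differences lay between -0.49 and 0.47 on the log2 scale, and the median half-width of a probe's 95% confidence interval was 0.42. For most probes a difference smaller than about that half-width could not be told from 0 with 2 arrays per group, even before adjustment. After adjustment the limit was higher: a difference of -1.27 (ILMN_1720181) was not called, at a limma adjusted p of 0.705. The number called was 9 without mock 0h replicate 2 and 1 without mock 9h replicate 1.

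Each line has 4 changes per probe, each of its 9 h arrays against each of its 0 h arrays. All tRNA-Arg changes lay above all mock changes for 2716 probes (10.7%) and below them for 2844 (11.2%). With median scaling these counts became 1208 and 5616, and without single arrays, which leaves fewer changes to compare, they ran from 4558 to 5169 and from 4570 to 5389. With quantile normalization and all arrays, 171 of the higher and 185 of the lower probes also had an unadjusted p under 0.01, and the 12 largest differences each way are described here. The log2 stability difference ran from 0.95 to 1.16 in the 12 highest and from -1.27 to -0.94 in the 12 lowest, and every one of them had an adjusted p between 0.685 and 0.709. These probes were ranked by the difference that is printed, so their sizes are a description and carry no support of their own. In all 12 highest and all 12 lowest, the change on the tRNA-Glu arrays differed from that on the same mock arrays in the same direction. The probes were chosen with these mock arrays, which favours such agreement, so it carries no support of its own. Whether the differences are particular to the tRNA-Arg line was not tested, and they are not called so.

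ILMN_1776535 had the smallest unadjusted p of all named probes. Its log2 signal was 5.93 and 5.85 in tRNA-Arg cells at 9 h and 5.71 and 5.59 at 0 h, against 5.70 and 5.69 in mock cells at 9 h and 6.37 and 6.46 at 0 h. The mock arrays at 0 h were thus the high ones, and the other 6 arrays lay together. The stability difference was 0.96, with a 95% confidence interval of 0.62 to 1.30. From limma, p was 4.14e-05 and the adjusted p was 0.685. ILMN_1816990 had log2 signals of 5.81 and 6.08 in tRNA-Arg cells at 9 h and 5.30 and 5.39 at 0 h, against 5.39 and 5.15 in mock cells at 9 h and 5.65 and 5.60 at 0 h. Both tRNA-Arg arrays at 9 h were above every other array, and the stability difference was 0.96 (0.57 to 1.34; limma adjusted p = 0.685).

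The highest stability difference belonged to ILMN_3280943, a probe above the floor of detection used here (the array's median raw intensity) on all 8 arrays. Its log2 signal was 7.65 and 7.69 in tRNA-Arg cells at 9 h and 6.76 and 6.75 at 0 h, against 7.10 and 7.34 in mock cells at 9 h and 8.04 and 6.88 at 0 h. The tRNA-Arg arrays agreed within each time, while the mock arrays at 0 h lay far apart. The difference was 1.16 (0.35 to 1.96; limma adjusted p = 0.705). Without mock 0h replicate 1 it became 0.57, not called, and without mock 0h replicate 2 it became 1.74 with a limma adjusted p of 0.0108, so its size rests on which mock array at 0 h is used. ILMN_3210171 showed the same pattern on the 8 arrays, with 7.43 and 7.58 in tRNA-Arg cells at 9 h, 6.74 and 6.69 in tRNA-Arg cells at 0 h, 7.06 and 7.28 in mock cells at 9 h, and 8.01 and 6.96 in mock cells at 0 h. Its difference of 1.10 became 0.58 without mock 0h replicate 1. ILMN_3243278 and ILMN_3244646 were also above the floor on all 8 arrays, with differences of 1.01 and 0.97. In both, the tRNA-Arg arrays at 9 h were the highest of the 8, or level with the highest mock array at 0 h.

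Among the lowest probes, ILMN_1716264 was the brightest. Its log2 signal was 8.66 and 8.84 in tRNA-Arg cells at 9 h and 9.26 and 9.53 at 0 h, against 9.08 and 9.17 in mock cells at 9 h and 8.62 and 8.79 at 0 h. The line with the higher signal at 0 h had the lower one at 9 h. The stability difference was -1.07 (-1.52 to -0.62; limma adjusted p = 0.685). ILMN_1720181 had the most negative difference, -1.27 (-2.12 to -0.42; limma adjusted p = 0.705). Its log2 signal was 6.87 and 6.87 in tRNA-Arg cells at 9 h and 6.45 and 6.49 at 0 h, against 8.08 and 7.93 in mock cells at 9 h and 6.24 and 6.44 at 0 h. The RNA was higher at 9 h than at 0 h in both lines, and less so in tRNA-Arg cells. ILMN_2340259 was lower at 9 h than at 0 h in both lines, with 4.35 and 4.88 at 9 h and 6.74 and 6.80 at 0 h in tRNA-Arg cells, against 4.71 and 4.90 at 9 h and 5.87 and 5.71 at 0 h in mock cells. Its 9 h signals overlapped between the lines, and its 0 h signals did not. The probe was above the floor on only 4 of the 8 arrays, so its low 9 h signals are uncertain.

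Most of these probes were dim: 6 of the 12 highest and 10 of the 12 lowest had a mean log2 signal under 6 over the 8 arrays, and 6 and 2 of them were above the floor on all 8. Without background correction, 17 of the 24 differences were smaller by over 1.5 times, and all 24 then lay between 0.49 and 1.03 in size. In 6 of the 12 highest every tRNA-Arg change was above 0 and every mock change below it, and in 8 of the 12 lowest the reverse held. Over all probes tested, 461 and 390 showed those opposed patterns.

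**Figure D1:**
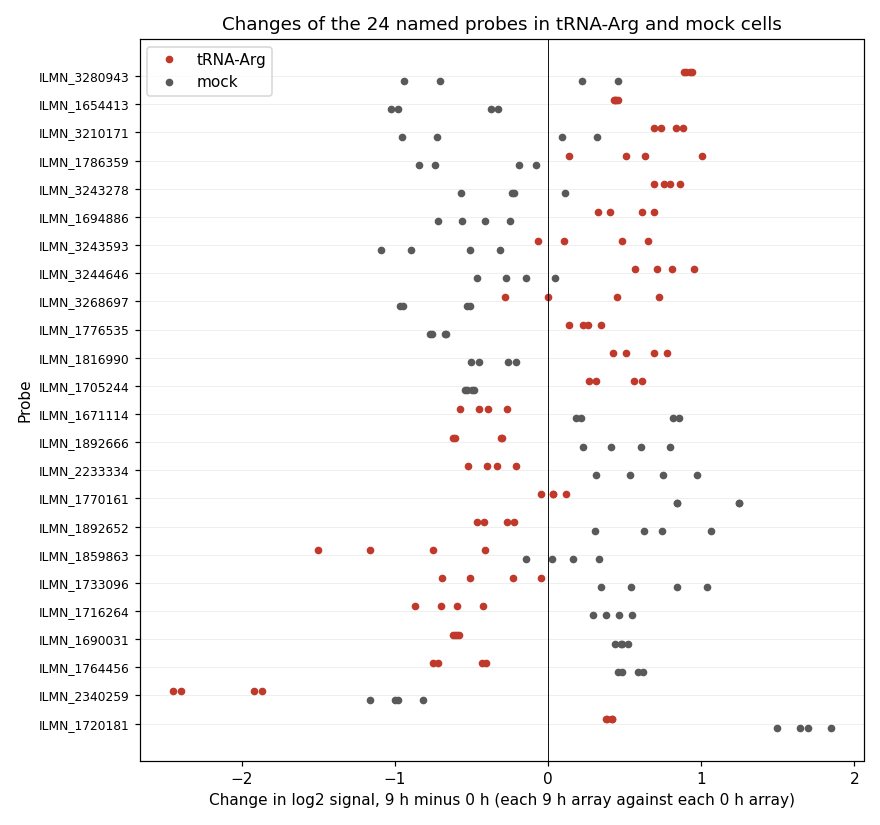
Change in log2 signal (9 h minus 0 h, horizontal axis) of the 24 named probes (1 per row), with the 4 changes in tRNA-Arg cells in red above the 4 changes in mock cells in grey. The colours do not overlap in any row, by the way the probes were chosen, and the scatter of the mock points in ILMN_3280943 and ILMN_3210171 comes from the gap between the mock arrays at 0 h.

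A weaker pattern ran through the whole array. Probes were ordered by their response to α-amanitin on the tRNA-Glu arrays, which are no part of the tRNA-Arg or mock groups, and divided into 5 bins of 5091 or 5092 probes. A departure from mock shared by both over-expressing lines would enter this order as well as the stability difference, and was not tested. The median stability difference was -0.067, -0.021, -0.00098, 0.021 and 0.057 on the log2 scale, from the bin with the largest loss to the bin with the largest gain. In the bin with the largest loss the median change was -0.52 in tRNA-Arg cells and -0.47 in mock cells, and in that with the largest gain it was 0.36 in tRNA-Arg cells and 0.30 in mock cells. Probes with the largest loss on the tRNA-Glu arrays thus lost somewhat more in tRNA-Arg cells than in mock cells. Those with the largest gain gained somewhat more. Of the probes in the bin with the largest loss, 5.48% were lower and 0.982% higher in tRNA-Arg cells at an unadjusted p under 0.05 (limma), and in that with the largest gain 1.20% were lower and 3.36% higher. With median scaling in place of quantile normalization, the outer bins had median stability differences of -0.20 and -0.088, against -0.11 for all probes. The bin with the largest gain was then below 0, so these directions are relative to the middle of all probes.

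The shift in medians is far smaller than the interval of a single probe (a median half-width of 0.42 in both outer bins), and probes share their arrays, so no test over probes was made. The difference between the outer bins was 0.12, and it became 0.078 without tRNA-Arg 9h replicate 2 and 0.16 without tRNA-Arg 9h replicate 1. Of these arrays, tRNA-Arg 9h replicate 2 was also the one farther along the first principal component, at 36.7 against 32.4 for the other. Leaving out tRNA-Glu 0h replicate 1, the array that stood apart, gave medians of -0.057 and 0.043 in the outer bins. Ordering the probes by signal in place of response gave no such gradient, with medians between -0.0079 and 0.0069.

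**Figure D2:**
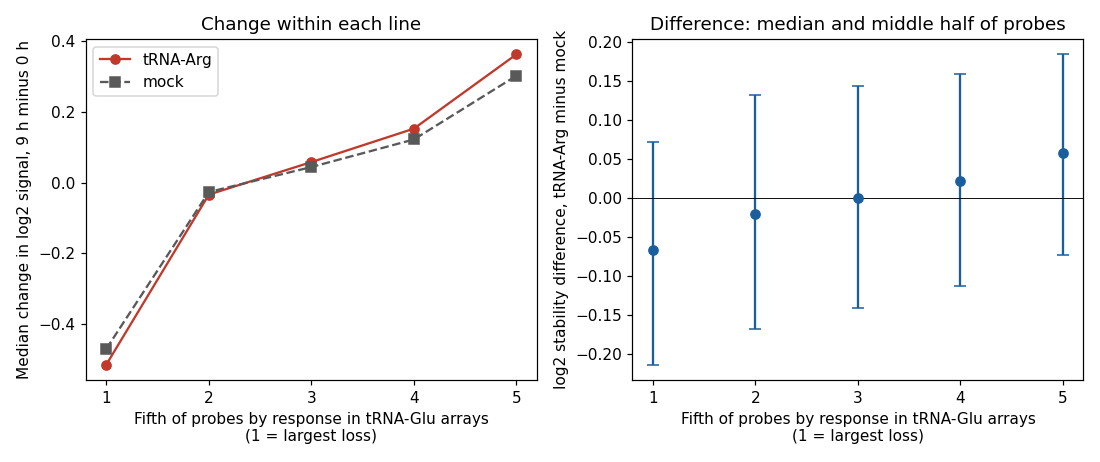
Left, median change in log2 signal (9 h minus 0 h) in tRNA-Arg cells (red) and mock cells (grey) for 5 bins of probes ordered by their response on the tRNA-Glu arrays (horizontal axis, 1 = largest loss). Right, the median log2 stability difference (points) with the 25th and 75th percentiles of probes (lines): the medians climb from -0.067 to 0.057, within a spread of probes several times as wide.

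Gene names come only from the authors' deposited table, which gives 34602 symbols 1 score each for tRNA-Arg against control. The sources used here do not say how it was calculated or on what scale, and no formula tried on the array values matched it, so the sign is read from the column's name alone, as tRNA-Arg against control. The scores in the authors' deposited table have a median of 0.00166 and an SD of 0.0846, 51.0% of them lie above 0, and the lowest and highest 5% begin at -0.127 and 0.132. The table holds no replicate and no p-value, so a family is described by its median and by how many members lie above 0 and in those tails, beside the same for all symbols, and nothing is called particular to it.

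The only measure of error in the scores is that some genes are listed under 2 names. RefSeq pairs 547 such couples of symbols with 1 gene each. Between the couples in the authors' deposited table the scores correlated at r = 0.135 across genes, 272 of 547 couples shared a sign, and the spread of a single score worked out at an SD of 0.0794, close to the SD of all scores. Where at least 1 score of a couple was over 0.2 in size, 16 of 31 couples shared a sign in the authors' deposited table. The gene VOPP1 scored -0.621 under that name and -0.383 as ECOP, and NOP16, a ribosome assembly factor, scored 0.266 under that name and 0.281 as HSPC111 in the authors' deposited table. HNRNPK scored 0.207 and, as HNRPK, 0.228, whereas TRIM27 scored -0.301 and, as RFP, 0.186, and CCDC125 scored 0.428 and, as KENAE, -0.105 in the authors' deposited table. A single score is therefore weak evidence about its gene, and 2 names of a gene may also stand for different probes. These couples were chosen for naming after their values were seen.

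**Figure D3:**
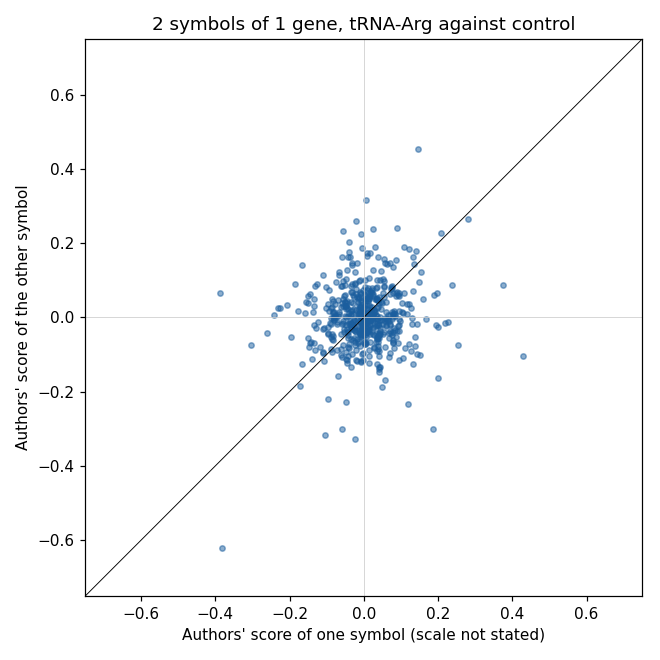
Scores from the authors' deposited table of the 547 couples of symbols that RefSeq assigns to 1 gene, 1 symbol on each axis (scale not stated), with the diagonal on which equal scores would lie. The points form a round cloud, as the correlation of 0.135 describes, with a few couples such as VOPP1 and ECOP near the diagonal.

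Symbols were grouped into 95 families by their prefix, which together hold 20364 symbols. In the authors' deposited table, 38 families had a median above that of all symbols and 57 below it. The highest medians were those of UQCR, RNU, RPL, ATP5, MRPS, TIMM, COX and RPS, and the lowest those of CNOT, MCM, EXOSC, HSP, KLF, SMAD, TOMM and S100 in the authors' deposited table. The family medians in the authors' deposited table ran from -0.0714 to 0.124. In the tRNA-Glu column of that table, which shares the control, the highest families named here also had medians above 0. They were 0.131 for RPL, 0.0955 for RPS and 0.102 for RNU. Of the lowest families, CNOT (-0.112), MCM (-0.0907), EXOSC (-0.128), KLF and TOMM were below 0 there, and HSP, SMAD and S100 above it. These leans are therefore not called particular to the tRNA-Arg line.

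**Figure D4:**
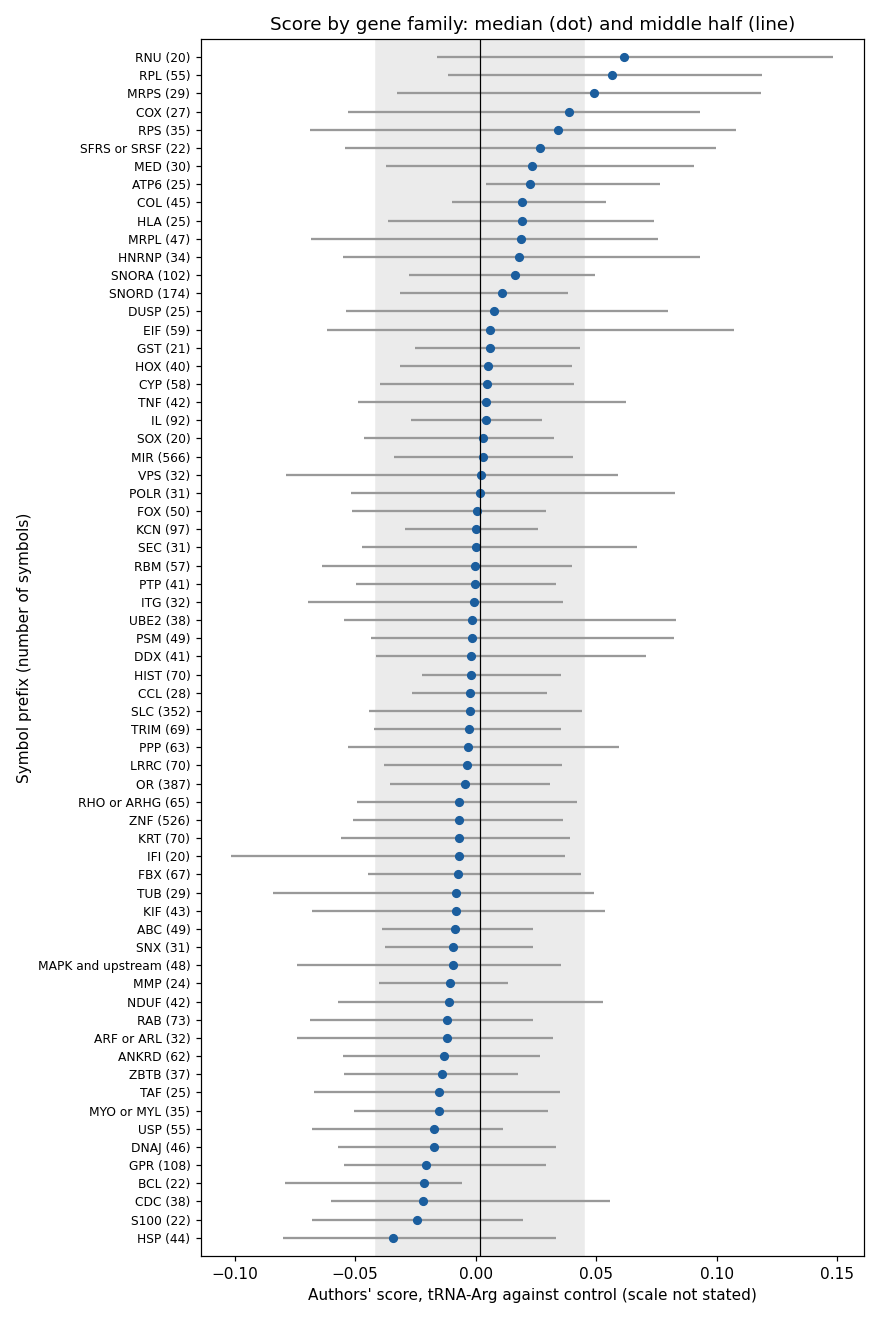
Score for tRNA-Arg against control (horizontal axis, scale not stated) by gene family with at least 20 symbols, from the authors' deposited table: points are medians, lines run from the 25th to the 75th percentile, the black line is the median of all symbols and the grey band its 25th to 75th percentile. RNU, RPL and MRPS lie highest and HSP lowest, and every line overlaps the grey band.

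Proteins of the cytosolic ribosome were among the families with the highest medians. The RPL family, the proteins of the large subunit, had a median of 0.0567 over 55 symbols in the authors' deposited table; 37 were positive, 12 were in the highest 5% and 1 in the lowest. The RPS family, the proteins of the small subunit, had a median of 0.0341 over 35 symbols in the authors' deposited table; 21 were positive, and the highest tail held 8 and the lowest 2. Together 20 of 90 (22.2%) lay in the highest tail and 3 (3.33%) in the lowest of the authors' deposited table. RPL21 scored 0.716, RPL26 0.537, RPL35A 0.420, RPS7 0.387 and RPL22 0.312, while, also in the authors' deposited table, RPL27A scored -0.191 and RPS9 -0.193. Such genes have many processed copies in the genome, and which copies a probe detects is not known here.

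mRNAs of this class usually begin with a cytosine followed by a run of pyrimidines, the 5′ terminal oligopyrimidine tract through which their translation and stability are controlled together. The windows around the annotated start (20 bases before it and 10 from it on, RefSeq, GRCh38.p14) are shown for the 5 highest and 2 lowest of these genes, with the run of C and T from the start base onward in capitals:
RPL21: cgccgcggccccgcctctttCCTTTCggcc
RPL26: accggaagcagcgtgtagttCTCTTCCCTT
RPL35A: ccacgcggcggggcctcgtcCTTCTCTTac
RPS7: ttccggtttccgccctcctcCTCgcgctgt
RPL22: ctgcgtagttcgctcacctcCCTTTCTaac
RPL27A: gagacttggcgaaggccttcCTTTTTCgtc
RPS9: cagccgtggcgcttccgcgcCTCTTTCTCa
They lie at chr13:27251538-27251567 (RPL21, plus strand), chr17:8383184-8383213 (RPL26, minus strand), chr3:197950170-197950199 (RPL35A, plus strand), chr2:3575240-3575269 (RPS7, plus strand), chr1:6199586-6199615 (RPL22, minus strand), chr11:8682772-8682801 (RPL27A, plus strand) and chr19:54200838-54200867 (RPS9, plus strand). The run of RPS7 ends after 3 bases, and those of the others are at least 6 long, both in genes with high and in genes with low scores. A start tract was counted where the start base was C and the run of C and T had at least 5 bases, that C included. It was found in 1104 of 27305 sequences of the RefSeq table (4.04%, given strand only). The check over the whole family is void, since only 70 of its 90 symbols have a sequence there.

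Mitochondrial ribosomal proteins, which translate the few mRNAs of the mitochondrial genome, had medians of 0.0491 for MRPS (20 of 29 symbols above 0, the highest tail holding 6 and the lowest 3) and 0.0187 for MRPL (25 of 47 above 0, 5 highest and 4 lowest) in the authors' deposited table. MRPS22 scored 0.306 and MRPS31 0.260, against -0.243 for MRPS34 and -0.265 for MRPL49 in the authors' deposited table. The families of the respiratory chain differed among themselves in the authors' deposited table. UQCR (complex III) had a median of 0.124 over 8 symbols, ATP5 (ATP synthase) 0.0499 over 18, COX (complex IV and its assembly) 0.0388 over 27, and NDUF (complex I) -0.0111 over 42, where the mean was 0.00406 (authors' deposited table). In UQCR, UQCRHL scored 0.256, UQCRB 0.162, UQCRFS1 0.153, UQCR 0.132 and UQCRH 0.116, while UQCRC2 scored -0.0625, UQCRC1 -0.114 and UQCRQ -0.174 in the authors' deposited table. ATP5E, the small epsilon subunit of the enzyme, scored 0.539, far from ATP5A1 at 0.159, the next in its family (authors' deposited table). The 4 respiratory families together had 19 of 95 symbols in the highest tail and 8 in the lowest of the authors' deposited table. TIMM, the import machinery of the inner membrane, had a median of 0.0490 over 12 symbols, and TOMM, that of the outer membrane, -0.0245 over 10, where the mean was 0.0114 (authors' deposited table).

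Translation factors had members in both tails. In the authors' deposited table the EIF family of initiation factors held 59 symbols with a median of 0.00595, of which 12 were in the highest tail and 8 in the lowest. EIF3C scored 0.227, while EIF1B, EIF4G3 and EIF5A scored -0.297, -0.270 and -0.263 in the authors' deposited table. Among 9 elongation factor symbols (EEF, median 0.0117), EEF1A1, which brings aminoacyl-tRNA to the ribosome, scored 0.0739, EEF2, which moves the ribosome along, -0.0668, and EEF1G -0.275 (authors' deposited table). PABPC4, a poly(A)-binding protein, scored 0.531 in the authors' deposited table.

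**Figure D5:**
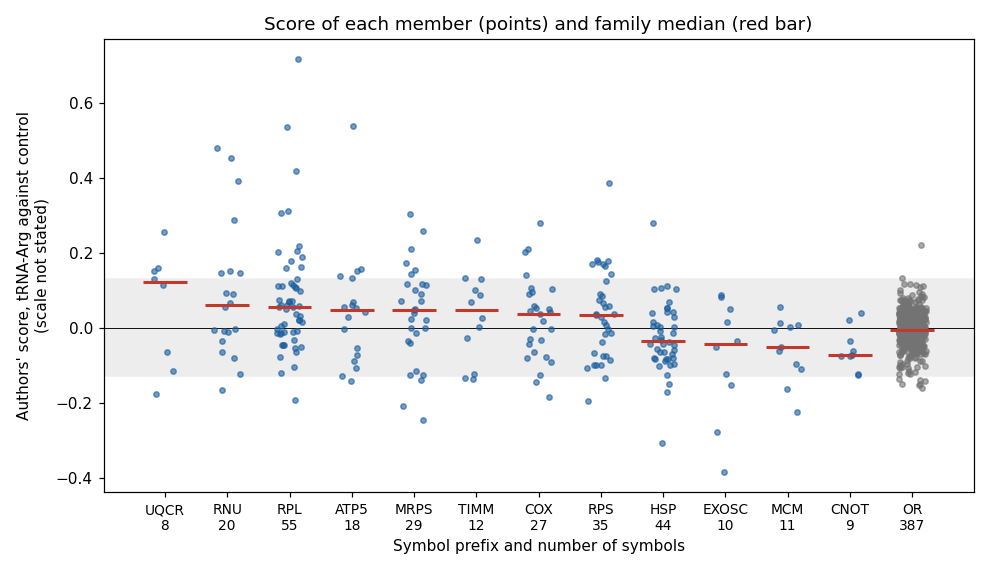
Score of each symbol (points) and family median (red bars) for 13 families, from the authors' deposited table, with the number of symbols under each name and the middle 90% of all symbols in grey. Single members such as RPL21 (0.716) and ATP5E (0.539) lie far above their families, and the 387 olfactory receptor symbols (OR, grey points) stay mostly within the band.

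The main deadenylase and the exosome of mRNA decay had low medians. CNOT, the CCR4-NOT complex that shortens poly(A) tails, had the lowest median of all 95 families, -0.0714, with 2 of 9 symbols above 0 and none in either tail of the authors' deposited table. Its catalytic subunits CNOT7, CNOT8, CNOT6 and CNOT6L scored -0.0725, -0.0726, -0.0616 and -0.0714, the scaffold CNOT1 scored 0.0232 and CNOT3 0.0395 in the authors' deposited table. EXOSC, the RNA exosome that degrades RNA from its 3′ end, had a median of -0.0410, with 3 of 10 symbols in the lowest tail and none in the highest of the authors' deposited table. EXOSC6 scored -0.382, EXOSC8 -0.275 and EXOSC3 -0.152, against, in the authors' deposited table, 0.0880 for EXOSC5 and 0.0821 for EXOSC1. EXOSC2 and GRIPAP1, known from the study's work on tRNA-Glu, scored 0.0177 and 0.0447 in the tRNA-Arg column of the authors' deposited table. The Sm-like proteins (LSM), which bind mRNAs with shortened tails, had a median of 0.0223 over 13 symbols in the authors' deposited table.

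Of the splicing families, SNRP, the core proteins of the spliceosomal particles, had 2 of 13 symbols in the highest tail and none in the lowest of the authors' deposited table. HNRNP, the proteins that coat nascent RNA, had a median of 0.0179 over 34 symbols (6 in the highest and 5 in the lowest tail), and with each gene counted once this became -0.00853 (authors' deposited table). SFRS or SRSF, the SR proteins, had a median of 0.0267, with SFRS7 at 0.276 and SFRS1 at -0.272 (authors' deposited table). DDX, the DEAD box RNA helicases, had 8 of 41 symbols in the highest and 3 in the lowest tail, with DDX55 at 0.251 and DDX60, an antiviral factor, at -0.248 in the authors' deposited table. POLR, the subunits of the RNA polymerases, had 5 of 31 in the highest tail, with POLR2C at 0.304 and POLR2H at 0.267 in the authors' deposited table. TAF15, an RNA-binding protein of the FET family, scored 0.740, second among symbols without placeholder names after ERH, a small splicing-associated protein, at 0.834 in the authors' deposited table.

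Small non-coding RNAs held some of the highest scores, while others lay near or below 0. RNU, a prefix mostly of spliceosomal small nuclear RNAs, had a median of 0.0617 over 20 symbols in the authors' deposited table. Of these, 11 were positive, and 7 fell in the highest tail and 1 in the lowest of the authors' deposited table. The prefix is also carried by RNU105A, which RefSeq names SNORA73B, a small nucleolar RNA. RNU1-5 scored 0.480, RNU1G2 0.455, RNU6-1 0.392 and RNU1-3 0.290, and RNU4-1 scored -0.164 in the authors' deposited table. RNU1F1, which RefSeq assigns to the same gene as RNU1G2, scored 0.146 in the authors' deposited table. RN7SK, the RNA that keeps P-TEFb, a transcription elongation factor, inactive, scored 0.644 in the authors' deposited table. The symbols that RefSeq names as 28S, 18S and 5S ribosomal RNA scored 0.443, 0.308 and 0.223 in the authors' deposited table. TERC, the telomerase RNA, scored -0.212, and the 4 Y RNAs between -0.0557 and 0.195 in the authors' deposited table. RMRP scored -0.0367, RPPH1 0.0497, RN7SL1 0.121 and the 3 vault RNAs between -0.0322 and 0.0446 in the authors' deposited table. RN7SK, RNU6-1 and 28S RNA had values of 0.844, 0.599 and 0.654 in the tRNA-Glu column of the authors' deposited table, which shares its control with the tRNA-Arg column. The labelling kit primes on poly(A) tails, which most of these RNAs lack, and copies of the U1 and U6 genes are near identical, so their scores are uncertain. The small nucleolar RNAs, which guide RNA modification and mostly lie in introns, had medians of 0.0110 for SNORD (95 of 174 above 0) and 0.0162 for SNORA (65 of 102 above 0) in the authors' deposited table. Of these 276 symbols, 12 (4.35%) lay in either tail, against 10.0% of all symbols in the authors' deposited table.

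The 566 symbols with the prefix MIR, mostly microRNA precursors, had a median of 0.00301, with 2.83% in either tail of the authors' deposited table. MIR886, a vault RNA that RefSeq names VTRNA2-1, carries the prefix as well. Among symbols that RefSeq classes as microRNA, the highest score was 0.213 in the authors' deposited table. The largest scores in size belonged to MIR1974 at 0.633, MIR586 at -0.370, MIR1228 at -0.226 and MIR1185-1 at 0.213 in the authors' deposited table. MIR1974 is not in that class. Probes for microRNAs detect the long precursor or its host transcript at most, since the mature RNA is too short for the labelling. The mature sequences of those with an entry in the RefSeq table (3 of 4) are shown to identify them, with the seed (bases 2 to 8) in capitals:
hsa-miR-586: uAUGCAUUguauuuuuaggucc
hsa-miR-1228-5p: gUGGGCGGgggcaggugugug
hsa-miR-1228-3p: uCACACCUgccucgcccccc
hsa-miR-1185-5p: aGAGGAUAcccuuuguauguu
hsa-miR-1185-1-3p: aUAUACAGggggagacucuuau
The 5 seeds are all different. In GRCh38.p14 the arms lie at chr6:45197734-45197755 (minus strand), chr12:57194504-57194524 and chr12:57194555-57194574 (plus strand), and chr14:101042991-101043011 and chr14:101043029-101043050 (plus strand).

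Several families of the cell cycle had medians below that of all symbols. MCM, the helicase that opens replication origins, had 4 of 11 symbols above 0, and a median of -0.0505 (authors' deposited table). Of the subunits of the helicase ring, MCM2 scored -0.223, MCM6 -0.163, MCM3 -0.108, MCM7 -0.0957, MCM4 -0.0614 and MCM5 0.00276 in the authors' deposited table. KIF, the kinesin motors, had 8 of 43 symbols in the lowest tail and 4 in the highest, with the mitotic kinesins KIF15 at -0.374 and KIF14 at -0.343 and KIFC1 at 0.308 in the authors' deposited table. CDC had 5 of 38 in the lowest tail and 2 in the highest, whereas CDK had a median of 0.0328 with 10 of 16 above 0 (authors' deposited table). The 6 cell cycle families together had 20 of 142 symbols (14.1%) in the lowest tail and 13 (9.15%) in the highest of the authors' deposited table.

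All 3 chaperone families had medians below that of all symbols. HSP had the lowest median of the families with at least 20 symbols, -0.0342, with 17 of 44 above 0 in the authors' deposited table. HSPE1, the mitochondrial co-chaperonin, scored -0.306 and HSP90B1, a chaperone of the endoplasmic reticulum, -0.148, while the highest symbol with the prefix, HSPC111, is not a heat shock gene (authors' deposited table). DNAJ, their J-domain partners, had a median of -0.0175 with 19 of 46 above 0, and CCT, the cytosolic chaperonin, had 3 of 12 in the lowest tail (CCT7 at -0.244, CCT2 at -0.162, CCT8 at -0.132) and none in the highest of the authors' deposited table. The proteasome family PSM had a median of -0.00164 and a mean of 0.0169, with PSMD8 at 0.342, PSMD7 at 0.281 and PSME2 at -0.176 in the authors' deposited table.

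The most negative scores among symbols without placeholder names came from genes of many kinds. ANKRD1, a stress-induced target of the YAP pathway, scored -0.857, CTSD, the lysosomal protease cathepsin D, -0.670, S100A16, a calcium-binding protein, -0.656 and CAPG, an actin-capping protein, -0.656 in the authors' deposited table. GNG12 scored -0.576, NOMO3 -0.569, PPDPF -0.563, SOX4 -0.561, ADAM9 -0.556, FHL3 -0.543, DDIT4 -0.496 and ITGAV -0.440 in the authors' deposited table. Their families did not share scores of this size: CTS had a median of 0.0111, S100 -0.0242, SOX 0.00309, ITG -0.000539 and ANKRD -0.0132 (authors' deposited table). The S100 median was still among the lowest named above. The means of these families were all below 0, at -0.0334 for CTS, -0.0329 for S100, -0.0340 for SOX, -0.0122 for ITG and -0.0323 for ANKRD (authors' deposited table). ANKRD did have 11 of 62 symbols in the lowest tail and 3 in the highest (authors' deposited table). S100A4, a marker of invasive cells, scored 0.279, opposite to S100A16, and SOX15 scored 0.214, opposite to SOX4 and SOX9 (-0.342) in the authors' deposited table. Among the highest, GPKOW scored 0.591, PPP3R1, the regulatory subunit of calcineurin, 0.572, AMY1C 0.566, AP2B1, an adaptor of clathrin-coated pits, 0.559, TFAM, the packaging factor of mitochondrial DNA, 0.491 and PRR7 0.484 in the authors' deposited table.

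Families of signalling, traffic and immunity differed in their tails, against 6.48% in the lowest and 5.71% in the highest 5% of all symbols for those without placeholder names (authors' deposited table). The phosphatase families DUSP and PPP had 3 of 25 and 5 of 63 symbols in the lowest tail and 4 and 8 in the highest, and the chemokines CXCL and CCL had none in the lowest and 1 each in the highest of the authors' deposited table. IL, CXCL, CCL and TNF together had 11 of 175 in the lowest and 8 in the highest tail (authors' deposited table). The families described next were picked after their values were seen. RAB, the GTPases of membrane traffic, had 8 of 73 in the lowest and 2 in the highest tail of the authors' deposited table. TNF ligands, receptors and induced genes had 7 of 42 in the lowest and 1 in the highest, led by TNFAIP1 at -0.402 and TNFRSF12A at -0.270 in the authors' deposited table. IFI, genes induced by interferon, had 5 of 20 in the lowest and 1 in the highest, with IFI16 at -0.329, IFIT2 at -0.214, IFIH1 at -0.202 and IFIT1 at -0.176 in the authors' deposited table. SMAD, the mediators of TGF-β signals, had 8 of 9 symbols below 0, with SMAD6 at -0.286 and SMAD7, the inhibitor of the pathway, at 0.0529 (authors' deposited table). BCL had 17 of 22 below 0, with BCL3 at -0.289 and BCL2L1, the anti-apoptotic BCL-XL, at -0.152 in the authors' deposited table. ABC transporters had 6 of 49 in the lowest tail and none in the highest, with the cholesterol exporter ABCA1 at -0.291 in the authors' deposited table.

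Other families leaned above 0. V-ATPase subunits (ATP6), which acidify lysosomes, had 19 of 25 symbols above 0 but none in the highest tail and 1 in the lowest, ATP6V0B at -0.189 (authors' deposited table). Collagens (COL) had 29 of 45 above 0, with 4 in the highest tail (COL7A1 at 0.164, COL6A2 at 0.160, COL8A2 at 0.159 and COL8A1 at 0.155) and none in the lowest of the authors' deposited table. Interleukins and their receptors (IL) had 53 of 92 above 0, with IL8, the neutrophil chemokine, at 0.270 and IL11 at -0.264 in the authors' deposited table.

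Large families without a lean give a measure of the spread in the authors' deposited table. ZNF, the zinc finger proteins, had a median of -0.00683 over 526 symbols, with 32 in the lowest and 28 in the highest tail, and SLC, the solute carriers, -0.00245 over 352, with 22 and 17 (authors' deposited table). Olfactory receptors (OR), which sense odours in the nose, and potassium channels (KCN), best known from excitable cells, had 11 of 484 symbols (2.27%) in either tail of the authors' deposited table. The share in either tail was 25.6% for RPL and RPS together and 28.4% for the respiratory families, against 12.2% for all symbols without placeholder names, as a description without a test (authors' deposited table). Such shares were not particular to these families. Picked after their values were seen, tubulins (TUB) had 37.9%, aldehyde dehydrogenases (ALDH) 36.8% and EIF 33.9%, while PSM had 10.2% and ubiquitin-specific proteases (USP) 7.27% (authors' deposited table). The authors' deposited table holds no signal level, so whether scores far from 0 go with well-detected RNAs was not tested.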

How the data were processed

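RNA from MDA-MB-231 cells was measured on Illumina expression BeadChips. An intensity per probe and array, before normalization per the file headers, was taken from the deposited tables. The submitters' processing notes name lumi without a version; what else was done is not stated. Each symbol has 1 score in the authors' deposited table, by a formula that is not stated. A set of 12 detection columns, headed by 1 chip number that names no sample, was not used.

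Intensities were corrected with limma's normexp (saddle-point, offset 16), quantile normalized and put on the log2 scale. Probes were tested if above the array's median on both arrays of at least 1 group. All 12 arrays entered 1 fit of 6 group means (6 residual and 7.06 prior degrees of freedom), with Benjamini-Hochberg adjustment over all 25456 probes.

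Members, families and lists were chosen with earlier results of these data known. Named probes are the 12 highest and lowest stability differences at an unadjusted p under 0.01 without overlap, and the 5 smallest p. Named from the scores are the 15 symbols at each end without placeholder names, the 4 largest in size of each family, all members of families of up to 12, EXOSC2 and GRIPAP1. RPL27A, RNU1F1, RNU4-1, the Y RNAs, ribosomal RNAs, vault RNAs, TERC, RMRP, RPPH1 and RN7SL1 were chosen after their values were seen. RefSeq paired 22440 of 34602 symbols with 1 gene. Some items are not reported here. Replicate numbers did not pair the arrays (correlations of -0.256 to 0.0859 between 15 pairs of groups).

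The alternatives concerned the background, offset, normalization, filter, arrays in the fit, replicate block and array weights, the authors' processed intensities, and each array left out in turn. The fit used limma 3.58.1 in R 4.3.3, and the scores were summarised with pandas 2.3.3 and numpy 2.4.6 in Python 3.11.15 and drawn with matplotlib 3.10.9.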

Additional observations from a re-analysis of the deposited data

Results flagged for a closer look

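The 24 named probes were chosen for large differences without overlap between the lines, which favours opposed changes. In 14 of them every change in tRNA-Arg cells ran one way and every change in mock cells the other. The limma test of the difference gave each an adjusted p between 0.685 and 0.705, so none passed the threshold. The log2 stability difference was 1.12 for ILMN_1654413, 1.03 for ILMN_1786359, 0.99 for ILMN_1694886, 0.96 for ILMN_1776535, 0.96 for ILMN_1816990 and 0.95 for ILMN_1705244, where tRNA-Arg changes were above 0 and mock changes below it. It was -0.94 for ILMN_1671114, -0.97 for ILMN_1892666, -1.01 for ILMN_2233334, -1.03 for ILMN_1892652, -1.06 for ILMN_1733096, -1.07 for ILMN_1716264, -1.08 for ILMN_1690031 and -1.11 for ILMN_1764456, where the directions were reversed. Most of these probes are dim, and 2 of the 14, ILMN_1776535 and ILMN_1716264, were above the floor on all 8 arrays. Without background correction, 17 of the 24 named differences were smaller by over 1.5 times, and the smallest in size was 0.49. Over all 25456 probes tested, 461 and 390 showed these patterns.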

How the results depend on the processing

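The stability difference called 0 probes under every alternative but 2: without single arrays the count ran from 0 to 9, with 9 calls without mock 0h replicate 2 and 1 without mock 9h replicate 1. The count at an unadjusted p under 0.05 became 2573 without a filter and 898 with probes above the floor on all 8 arrays, which changes the number tested, and ran from 1170 to 1650 without single arrays. Without single arrays, tRNA-Arg cells had 4222 to 7012 calls between 0 h and 9 h, and mock cells had 4221 to 6640. With the replicate block there were 0 stability calls, 1558 probes at an unadjusted p under 0.05, and 6901 and 6718 calls between times in tRNA-Arg and mock cells. The share of upward calls between times fell to 41.7% in tRNA-Arg and 44.2% in mock cells without a filter, and to as little as 38.8% without a single tRNA-Arg array; the cause was not tested. Of the 24 named differences, 17 were smaller by over 1.5 times without background correction and 17 with an offset of 50, and 0.49 to 1.04 in size in both. Leaving out 1 array did the same to ILMN_3280943 (0.57), ILMN_3210171 (0.58) and ILMN_1671114 (-0.62), all without mock 0h replicate 1, to ILMN_3268697 (0.60, without tRNA-Arg 0h replicate 1) and to ILMN_1859863 (-0.68, without tRNA-Arg 9h replicate 2). The filter on all 8 arrays kept 8 of the 24. Where it had a value, no named probe changed sign under the 17 alternatives, and 2 passed the threshold without 1 mock array: ILMN_3280943 (1.74, adjusted p = 0.0108) and ILMN_1654413 (1.45, adjusted p = 0.0495). Using the mean in place of the median turned the sign of 24 of 95 family values, among them SOX, CTS, NDUF and TNF, and 43 families then lay above all symbols, against 38; counting each gene once, chosen after seeing the data, turned 1, HNRNP, and gave 37. Not run, because probes could not be named or no protein table was at hand: family medians on the arrays, the mean of all probes of a gene, scores of genes above the floor, and arginine content. The number of arrays limits the precision.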
